A study of Mus musculus with 9 samples.

Results

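Secondary granule and late neutrophil genes were examined in clones of a murine acute myeloid leukemia (AML) model. The 10 genes were chosen by name and comprise *Ltf*, *Camp*, *Ngp*, *Lcn2*, *Mmp8*, *Chil3*, *Fcnb*, *Olfm4*, *S100a8* and *S100a9*. All 10 were found among the 55401 genes of the deposited tables, each once. RNA-Seq covered 9 libraries, 3 per group, of splenocytes that were thawed and sorted by color code as cKit+CD11bdim, a gate for immature leukemic cells that the sample labels extend to CD11b-negative cells. Every group descends from lineage-negative bone marrow of C57BL/6-Ly5.1 mice that was transformed with *Hoxa9* and *Meis1* (H9M cells) and labeled with a fluorescent barcoding vector. Single-cell clones of these cells were pooled and transplanted together with helper bone marrow into lethally irradiated C57Bl6/J mice.

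Mouse #15, killed before overt disease, gave the pre-malignant group, with 1 library of each of 33BC-D, 43BC-D and 38BC-D as minor clones. Leukemic endpoint mice gave these 3 clones after expansion (de novo expanded group), 38BC-D from mouse #13, 43BC-D from mouse #14 and 33BC-D from mouse #17. The stably expanded group was 1 clone, 34BC-D, from mice #13, #14 and #17. Pre-malignant libraries therefore shared 1 mouse and stably expanded libraries shared 1 clone, so that mouse and disease stage, and for the stably expanded group also the clone, cannot be told apart in the comparisons with the pre-malignant group. Labels link the columns of the tables to a group only, and the libraries are numbered 1 to 3 without naming a clone or a mouse. The p-values measure the spread between these libraries. Between 10379739 and 15551196 reads per library fell on genes.

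Neutrophils fill their granules in waves as they mature. Primary (azurophilic) granules with myeloperoxidase and serine proteases form in promyelocytes, secondary (specific) granules with lactoferrin and cathelicidin form in myelocytes and metamyelocytes, and gelatinase granules follow. Expression of the secondary granule genes depends on the transcription factor C/EBPε, and progenitors transformed by *Hoxa9* and *Meis1* are known for a block in myeloid differentiation.

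The genes lie on 4 chromosomes of GRCm38.p6, the genome build of the files. *Camp*, *Ngp* and *Ltf* share a stretch of chromosome 9 from 109847379 to 111042767, and *Mmp8* lies far from them on the same chromosome, from 7558456 to 7568485. *S100a8* and *S100a9* are neighbors on chromosome 3, from 90668978 to 90695721, with 0 other annotated genes between them. *Chil3* is also on chromosome 3 (106147554 to 106167564), *Fcnb* (28076378 to 28084885) and *Lcn2* (32384633 to 32388252) are on chromosome 2 and *Olfm4* (79984081 to 80023139) is on chromosome 14.

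RefSeq promoter windows of the same build were found for 10 of the 10 genes. In the 250 bases before each start, both strands were searched for the letters of the C/EBP motif TTGCNNAA, which reads TTNNGCAA on the other strand. This motif was present for 6 of the 10 genes, namely *Ltf*, *Ngp*, *Fcnb*, *Lcn2*, *Mmp8* and *S100a9*, compared with 9.56% of all 32851 promoter windows. The PU.1 motif GAGGAA was found for 5 of the 10 genes (23.3% of all windows), TATAAA for 1 gene, *S100a8* (12.4%), and CCAAT for 5 genes (33.8%). These matches of letters are descriptions and were not tested. *Ngp* and *Fcnb* had 2 C/EBP matches each, which began 138 and 11 bases before the start in *Ngp*, and 235 and 123 bases before it in *Fcnb*. The match in *Ltf* began 75 bases before the start and overlapped a CCAAT match, and that in *S100a9* began 236 bases before it. Shown are 3 secondary granule genes with matches, 1 S100 gene with a match and *Chil3* without one, each up to the first base of the gene in the deposited tables, with the C/EBP matches in capitals. The *Ngp* match nearest to the start lies within the gene as these tables annotate it and is not shown, and the same holds for the whole windows of *Lcn2* and *Olfm4*.
Ngp (chr9:110419558-110419746, + strand): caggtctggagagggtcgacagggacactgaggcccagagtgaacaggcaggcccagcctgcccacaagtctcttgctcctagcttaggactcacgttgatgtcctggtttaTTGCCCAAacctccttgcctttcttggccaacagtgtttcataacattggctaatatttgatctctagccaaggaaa
Ltf (chr9:111019042-111019270, + strand): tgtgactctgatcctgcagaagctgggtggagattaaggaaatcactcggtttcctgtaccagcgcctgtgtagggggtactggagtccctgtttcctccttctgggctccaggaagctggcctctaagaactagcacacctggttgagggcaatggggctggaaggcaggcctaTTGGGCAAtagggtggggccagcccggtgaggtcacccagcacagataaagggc
Fcnb (chr2:28084886-28085128, - strand): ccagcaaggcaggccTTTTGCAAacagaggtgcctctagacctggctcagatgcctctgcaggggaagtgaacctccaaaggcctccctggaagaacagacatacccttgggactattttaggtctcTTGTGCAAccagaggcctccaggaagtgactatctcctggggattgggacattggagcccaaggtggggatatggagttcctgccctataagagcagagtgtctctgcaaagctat
S100a9 (chr3:90695722-90695971, - strand): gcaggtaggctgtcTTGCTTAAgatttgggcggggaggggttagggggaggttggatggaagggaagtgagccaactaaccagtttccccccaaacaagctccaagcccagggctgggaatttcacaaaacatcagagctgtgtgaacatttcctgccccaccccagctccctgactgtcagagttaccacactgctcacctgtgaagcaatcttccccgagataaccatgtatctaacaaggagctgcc
Chil3 (chr3:106167565-106167814, - strand): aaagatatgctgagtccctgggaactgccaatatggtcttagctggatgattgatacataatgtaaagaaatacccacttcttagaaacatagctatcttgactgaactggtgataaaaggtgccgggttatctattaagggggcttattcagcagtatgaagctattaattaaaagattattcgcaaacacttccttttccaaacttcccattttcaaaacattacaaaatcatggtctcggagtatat

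Levels were compared over the 9 libraries as read counts per 1000000 reads on genes (CPM). Together the 10 genes took 0.0244%, 0.0240% and 0.0201% of the reads of pre-malignant libraries 1, 2 and 3. De novo expanded libraries spent 0.0167%, 0.0233% and 0.0671% of their reads on these genes, and stably expanded libraries 0.468%, 0.200% and 0.0610%. The 2 highest libraries were thus stably expanded 1 and 2, and de novo expanded library 3 stood at the level of stably expanded library 3. In bulk RNA, a larger share of cells that express a gene and more RNA per expressing cell cannot be told apart.

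**Figure D1:**
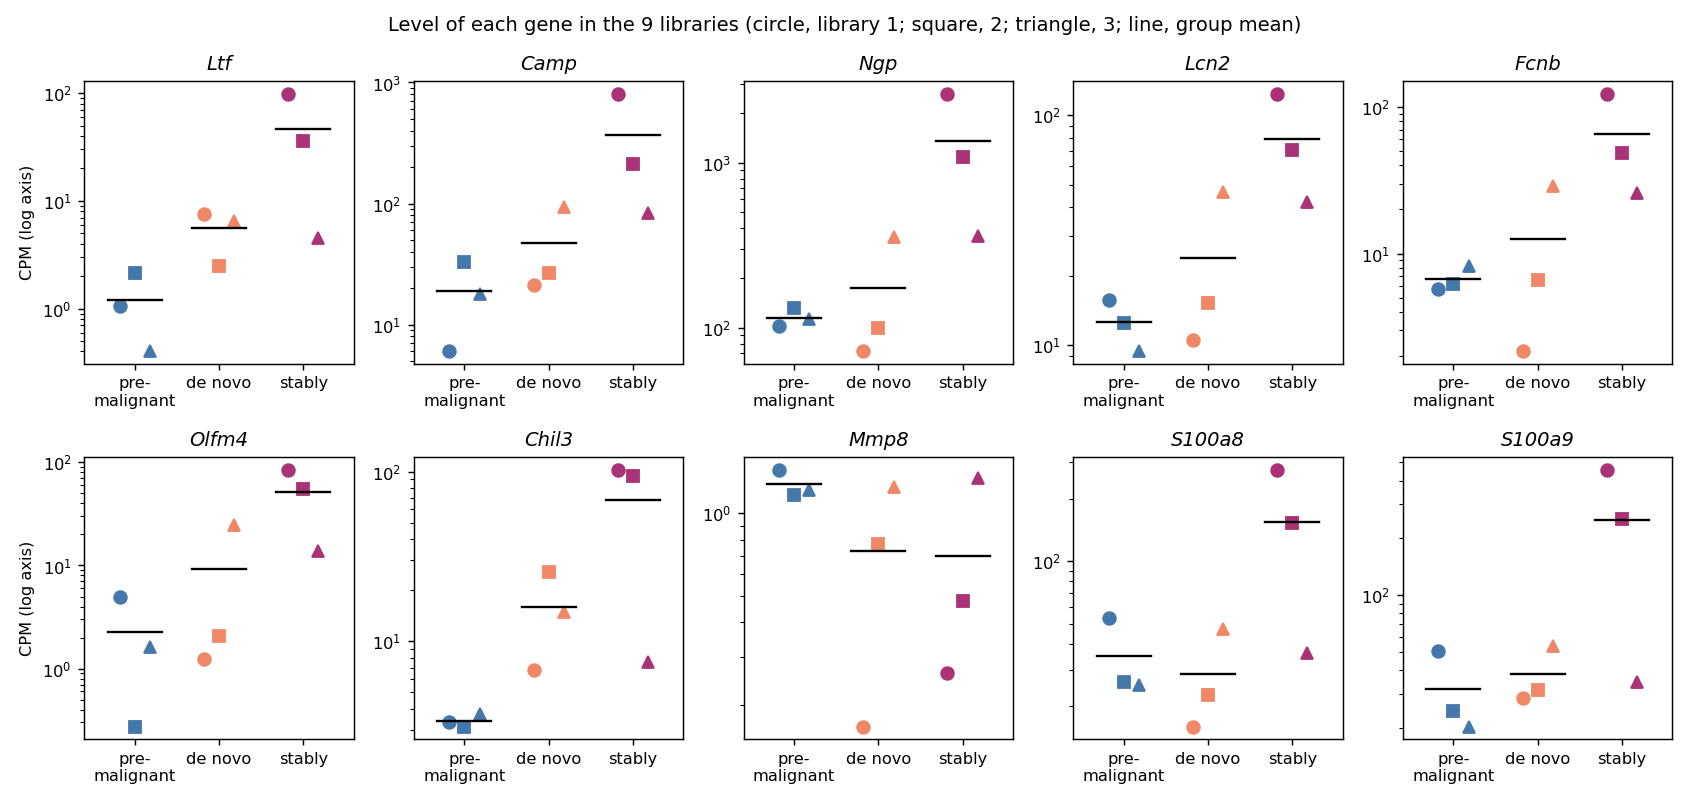
CPM of the 10 genes on log axes with a scale of its own for each gene, with 1 symbol per library and a line at the group mean (n = 3). In all genes except *Mmp8*, stably expanded libraries 1 and 2 are above the other 7 libraries, while stably expanded library 3 often lies among the de novo expanded libraries.

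Per length of transcript, the order of the genes can be read from TPM, in which reads are divided by exon length and then scaled to an equal total per library. In the pre-malignant libraries, *Ngp* was the most abundant with 112 ± 15.8 TPM (mean ± SD, n = 3), followed by *S100a9* with 71.7 ± 35.3, *S100a8* with 59.6 ± 25.7 and *Camp* with 30.0 ± 21.4. The means of *S100a9* and *S100a8* differed by less than their SD. The remaining 6 genes were low, from 5.97 ± 1.31 TPM for *Fcnb* and 5.67 ± 1.30 for *Lcn2*, which did not differ beyond their SD, down to 0.411 ± 0.301 for *Ltf*. In the stably expanded libraries, *Ngp* again ranked first with 1308 ± 1021 TPM, with *Camp* (568 ± 559) and *S100a9* (564 ± 452) next and closer to each other than their spread. *Ngp* alone held between 41.7% and 59.0% of the reads of the 10 genes in each library.

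Differences were tested between 2 groups of 3 libraries with limma on log2(normalized count + 1), leaving out genes whose normalized counts averaged under 10. A gene was called at a Benjamini-Hochberg adjusted p under 0.05 over all genes tested and at least 2-fold change, and fold changes are given on the log2(normalized count + 1) scale. The first comparison was of the stably expanded with the pre-malignant group. Of the 10 genes, 7 were called higher in the stably expanded libraries and 0 lower. Of all 13968 genes tested, 168 (1.2%) were called higher and 216 lower. The 7 genes were *Ltf*, *Camp*, *Ngp*, *Lcn2*, *Fcnb*, *Olfm4* and *Chil3*, which all encode granule or secreted proteins. In these 7 genes the 2 groups did not overlap, as in 16.1% of all genes tested in this direction. At an unadjusted p under 0.05, 9 of the 10 genes were higher, compared with 13.2% of all genes. The median log2 fold change of the 10 genes was 3.07, and that of all genes was 0.00.

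*Ltf* encodes lactoferrin, the iron-binding protein that defines secondary granules. Pre-malignant libraries 1, 2 and 3 had 1.06, 2.12 and 0.405 CPM, de novo expanded libraries had 7.59, 2.51 and 6.53 CPM, and stably expanded libraries had 98.3, 36.0 and 4.53 CPM. Every leukemic library was above every pre-malignant library, but stably expanded library 3 lay between the de novo expanded libraries. The log2 fold change of stably expanded over pre-malignant was 4.58 (standard error 0.91, limma adjusted p = 0.0154).

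*Camp* encodes the only murine cathelicidin, an antimicrobial peptide precursor stored in the same granules. Its level was 6.07, 32.9 and 18.04 CPM in the pre-malignant, 21.3, 26.6 and 94.0 CPM in the de novo expanded and 805, 210 and 84.2 CPM in the stably expanded libraries. The lowest stably expanded library exceeded the highest pre-malignant library, whereas de novo expanded libraries 1 and 2 fell within the pre-malignant range. From the pre-malignant to the stably expanded group, *Camp* rose by 3.98 on the log2 scale (standard error 0.72, limma adjusted p = 0.0112).

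*Ngp*, neutrophilic granule protein, is a cystatin-related protein of the secondary granules. Pre-malignant libraries held 102, 131 and 112 CPM and were close to each other. De novo expanded libraries ranged from 72.4 and 99.0 CPM in libraries 1 and 2 to 353 CPM in library 3, and stably expanded libraries reached 2605, 1076 and 360 CPM. Stably expanded libraries were above all others, although the 2 libraries numbered 3 were nearly level. Over pre-malignant, *Ngp* rose by 3.14 on the log2 scale (standard error 0.51, limma adjusted p = 0.00794).

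*Lcn2* encodes lipocalin 2, which binds bacterial siderophores. Its CPM were 15.8, 12.5 and 9.46 in the pre-malignant, 10.5, 15.3 and 46.3 in the de novo expanded and 124, 70.7 and 42.0 in the stably expanded libraries. All stably expanded libraries were at more than the highest pre-malignant level, and only de novo expanded library 3 reached their range. The difference between stably expanded and pre-malignant was 2.54 on the log2 scale (standard error 0.33, limma adjusted p = 0.00357), the lowest adjusted p among the 10 genes.

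*Fcnb* encodes ficolin B, a pattern recognition lectin of the complement system made by myeloid cells. It stood at 5.69, 6.23 and 8.24 CPM in the pre-malignant, at 2.17, 6.56 and 28.7 CPM in the de novo expanded and at 122, 48.2 and 25.7 CPM in the stably expanded libraries. As for *Lcn2*, de novo expanded library 3 was within the stably expanded range and the other 2 de novo expanded libraries were not. *Fcnb* rose by 3.00 on the log2 scale (standard error 0.43, limma adjusted p = 0.00526).

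*Olfm4* encodes olfactomedin 4, a glycoprotein found in a subset of neutrophils. The pre-malignant libraries varied widely among themselves, with 4.93, 0.274 and 1.62 CPM, of which the lowest is 4 reads. De novo expanded libraries held 1.25, 2.06 and 24.6 CPM and stably expanded libraries 85.2, 55.0 and 14.0 CPM. The groups at the ends did not overlap, and *Olfm4* had the highest log2 fold change of the 10 genes, 4.82 (standard error 0.86, limma adjusted p = 0.0103). *Olfm4* overlaps the annotated gene *Gm6999* on the same strand, which had at most 4 reads in any library.

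*Chil3* encodes the chitinase-like protein Ym1 of immature neutrophils and alternatively activated macrophages. Its pre-malignant levels were alike, with 3.34, 3.15 and 3.72 CPM. The de novo expanded libraries had 6.76, 25.8 and 15.0 CPM, and the stably expanded libraries had 103, 94.8 and 7.61 CPM. All 6 leukemic libraries were above the pre-malignant ones, and stably expanded library 3 was close to the lowest de novo expanded library. Stably expanded over pre-malignant, *Chil3* rose by 3.61 on the log2 scale (standard error 0.76, limma adjusted p = 0.0206).

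*S100a8* and *S100a9* encode the cytosolic calcium-binding proteins that pair as calprotectin and are abundant in neutrophils and monocytes. Pre-malignant libraries had 53.5, 26.3 and 25.4 CPM of *S100a8* and 50.6, 24.5 and 20.3 CPM of *S100a9*. Stably expanded libraries 1 and 2 were far above them, with 277 and 153 CPM of *S100a8* and 457 and 253 CPM of *S100a9*. Stably expanded library 3 had 36.1 and 34.9 CPM, inside the pre-malignant range for both genes. De novo expanded libraries had 15.9, 22.7 and 47.2 CPM of *S100a8* and 28.7, 31.6 and 54.0 CPM of *S100a9* and overlapped the pre-malignant group as well. The log2 fold changes of 1.81 (standard error 0.58, limma adjusted p = 0.0788) for *S100a8* and 2.44 (0.73, adjusted p = 0.0647) for *S100a9* did not pass the threshold. Without stably expanded library 3, both were called, at 2.63 and 3.53 with limma adjusted p of 0.00569 and 0.00299.

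*Mmp8*, the neutrophil collagenase of secondary granules, was barely expressed. Pre-malignant libraries had 19, 17 and 18 reads, de novo expanded libraries 2, 12 and 19 and stably expanded libraries 4, 7 and 14, which corresponds to at most 1.44 CPM. Among the 10 genes it was the only one with a negative log2 fold change of stably expanded over pre-malignant, -1.06 (standard error 0.62, limma adjusted p = 0.312), and the groups overlapped.

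**Figure D2:**
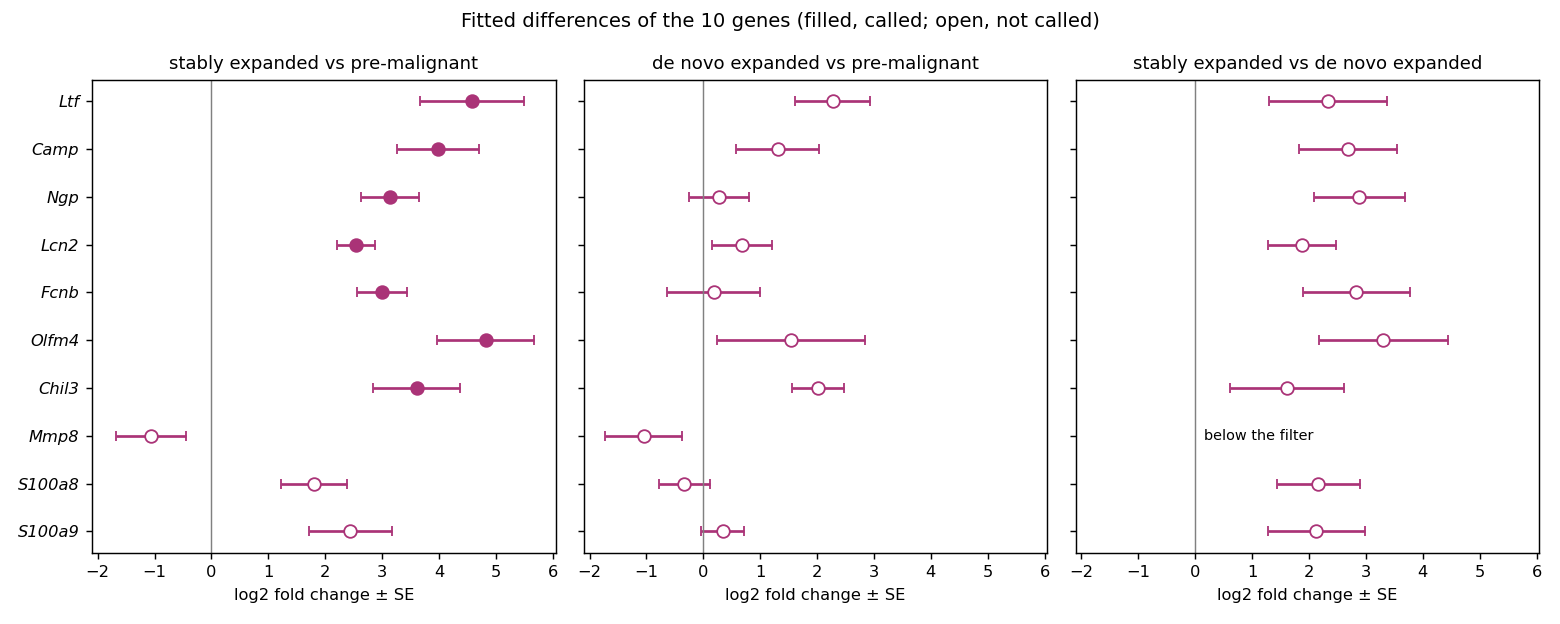
Fitted log2 fold changes of the 10 genes (x axis, log2(normalized count + 1) scale) with standard errors in the 3 comparisons, n = 3 libraries per group. Filled points mark genes that were called, which are 7 genes in stably expanded against pre-malignant and 0 in the other comparisons.

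These calls were lost under 1 alternative setting. With 1 fit of all 9 libraries, in which the 3 groups share 1 estimate of the spread, 0 of the 10 genes were called, and the limma adjusted p of the 7 genes lay between 0.0791 and 0.117 at log2 fold changes from 2.54 to 4.82. This setting called 6 of all genes, compared with 384 in either direction before. Leaving out 1 library at a time called between 5 and 9 genes, with 5 when pre-malignant library 3 and 9 when stably expanded library 3 was left out, and between 206 and 452 of all genes. *Camp*, *Ngp*, *Lcn2*, *Fcnb* and *Olfm4* were called in 15 of 16 alternative settings, *Ltf* in 14 and *Chil3* in 11.

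De novo expanded and pre-malignant libraries are of the same 3 clones before and after expansion. Of the 10 genes tested, 0 were called, as were 0 of 14195 genes (0%). At an unadjusted p under 0.05, 2 genes were higher in the de novo expanded libraries, *Ltf* and *Chil3*, compared with 5.99% of all genes. These 2 genes also did not overlap between the groups, compared with 10.6% of all genes. The log2 fold change of *Ltf* was 2.28 (standard error 0.66, limma adjusted p = 0.381) and that of *Chil3* was 2.01 (0.46, adjusted p = 0.356). DESeq2 called both genes, with adjusted p of 0.0359 and 1.64e-04, and edgeR called 0 of the 10. Over all genes, DESeq2 called 73 and edgeR 0.

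The remaining genes had log2 fold changes of de novo expanded over pre-malignant between -1.05 for *Mmp8* and 1.54 for *Olfm4*, and the median of the 10 was 0.51 compared with 0.01 for all genes. Leaving out 1 library moved this median between 0.048 without de novo expanded library 3 and 1.10 without de novo expanded library 1, and edgeR and DESeq2 gave 0.92 and 0.94. De novo expanded library 3 was the highest of its group in 8 of the 10 genes and above every pre-malignant library in 8. Libraries 1 and 2 were each at or below the highest pre-malignant library in 8 of the 10 genes. Without library 3, *Ngp* and *Fcnb* turned to -0.43 and -0.79 on the log2 scale, and 1 gene, *Chil3*, was called at 1.95 (limma adjusted p = 0.0446), as calls over all genes rose from 0 to 214. *S100a8* was at -0.34 over all 6 libraries and at 0.02 or 0.01 without pre-malignant library 1 or de novo expanded library 1, so that its direction changed with the library left out.

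The leukemic groups were compared directly, stably over de novo expanded, in cells that came from the same 3 mice. All stably expanded libraries were of clone 34BC-D and the de novo expanded libraries of other clones. Clone and kind of expansion therefore cannot be told apart in this comparison. *Mmp8*, with a mean normalized count of 9.68, was below the filter, and 9 genes were tested. All 9 had a positive fold change, from 1.61 for *Chil3* to 3.30 for *Olfm4*, with a median of 2.33 compared with 0.00 for all genes. None was called, with 0 of 9 against 0.00727% of the 13758 genes tested, and the limma adjusted p was 0.891 for each. DESeq2 and edgeR called 0 of them too, and 37 and 1 of all genes. At an unadjusted p under 0.05, 7 of the 9 were higher compared with 2.72% of all genes, the exceptions being *Ltf* and *Chil3*. Only *Ngp* did not overlap between the groups (4.66% of all genes), with a log2 fold change of 2.88 (standard error 0.80).

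This comparison turned on de novo expanded library 3. Without it, 6 of the 9 genes were called, *Camp*, *Ngp*, *Lcn2*, *Fcnb*, *Olfm4* and *S100a8*, with log2 fold changes from 2.51 for *Lcn2* to 4.60 for *Olfm4* and limma adjusted p from 0.00421 to 0.0481. The number of genes called among all genes tested then rose from 1 to 508. Stably expanded library 3 lay within the range of the de novo expanded libraries in 8 of the 10 genes, and without it the median of the 9 genes was 3.35 on the log2 scale, with 0 called.

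**Figure D3:**
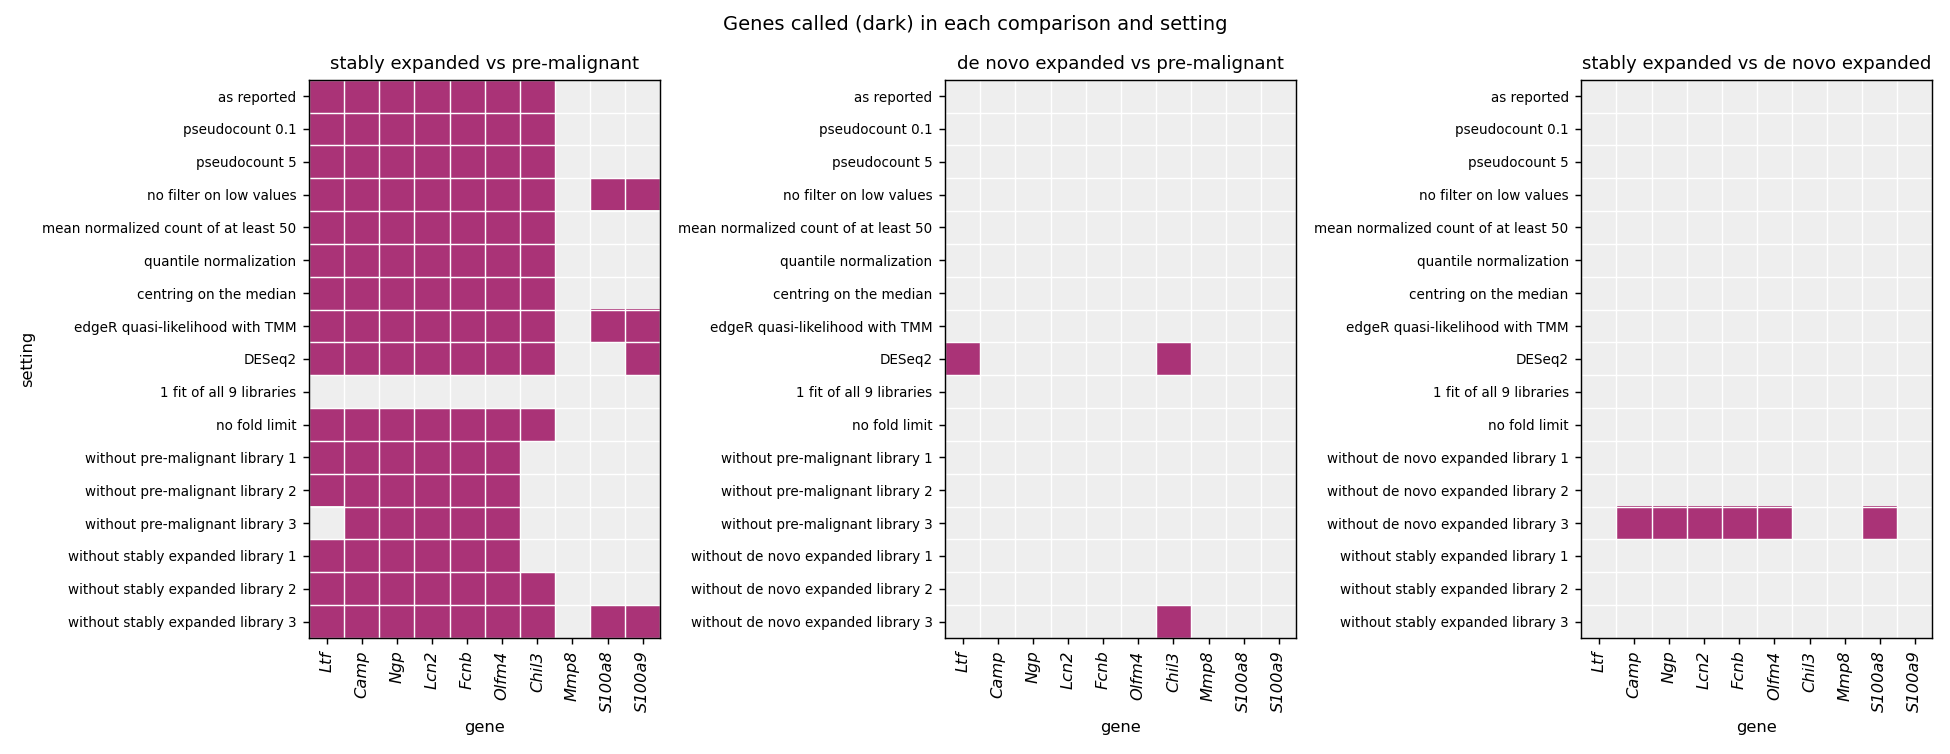
Genes called (dark) in the 3 comparisons (panels) under each setting of the test, with genes on the x axis and settings on the y axis. In stably expanded against pre-malignant the 7 genes are called in most settings and in none of them with 1 fit of all 9 libraries, and in stably against de novo expanded 6 genes are called only without de novo expanded library 3.

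The 9 genes other than *Mmp8* varied together over the libraries. In their 36 pairs, the Pearson correlation of log2(CPM + 1) over the 9 libraries ranged from 0.773 to 0.977 with a median of 0.886, and the Spearman correlation from 0.417 to 0.967 with a median of 0.767. The pairs share libraries, depth and groups, and these values are descriptions. *Ngp* and *Fcnb* were the closest pair. Over the 7 libraries other than stably expanded 1 and 2, the median Pearson correlation was 0.531 and the range was -0.159 to 0.969. *Mmp8* had Pearson correlations with the other 9 genes from -0.725 to -0.182 and Spearman correlations from -0.65 to 0.15.

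The order of the stably expanded libraries was shared by most genes, whereas the highest pre-malignant library differed between genes. Stably expanded library 1 was above library 2, and library 2 above library 3, in 9 of the 10 genes, with *Mmp8* in the opposite order. Per read of *S100a8* there were between 0.798 and 1.80 reads of *S100a9*, and per read of *Camp* there were between 3.24 and 6.23 reads of *Ngp* in all libraries except pre-malignant library 1, in which there were 16.8.

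Genes with the most similar pattern were searched among those with a mean of at least 10 CPM, by Pearson correlation of log2(CPM + 1) with the mean z-score of the 10 genes over the 9 libraries. *Tgoln1*, a trans-Golgi network protein, was the closest gene outside the 10 with a correlation of 0.985, but its level only ranged from 89.0 to 121 CPM. *Ncf1*, a cytosolic subunit of the phagocyte NADPH oxidase, followed at 0.973. It had 333, 314 and 319 CPM in the pre-malignant and 649, 528 and 479 CPM in the stably expanded libraries. The p38 kinase gene *Mapk13* and the sulfotransferase gene *Chst12* were also among the closest, at 0.963 and 0.959. *Mapk13* ranged widely, from 1.502 CPM in de novo expanded library 1 to 43.3 CPM in stably expanded library 1, and was called higher in the stably expanded than in the pre-malignant group at 2.48 on the log2 scale (limma adjusted p = 0.00497).

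Other granule genes were set beside the 10. Of 18 other genes of secondary and gelatinase granules, 11 were tested in stably expanded against pre-malignant libraries, with a median log2 fold change of 0.46. Of these, 0 were called lower and 1 higher, compared with 1.2% of all genes called higher. This gene was *Pglyrp1*, a bactericidal peptidoglycan recognition protein, at 1.77 (standard error 0.32, limma adjusted p = 0.0114). *Cd177*, a neutrophil surface protein, was at 1.43 (adjusted p = 0.0773), with 183, 97.0 and 33.2 CPM in the stably expanded and at most 38.0 CPM in the pre-malignant libraries. *Tcn2* (transcobalamin 2) and *Hp* (haptoglobin) were at 0.75 and 0.74, under the 2-fold limit.

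Genes of the primary granules were at higher summed levels, with a median log2 fold change of 0.78 in stably expanded against pre-malignant libraries. The 10 genes of this list summed to between 8518 and 9927 CPM in the pre-malignant and between 11768 and 14069 CPM in the stably expanded libraries. Of 9 tested, 2 were called higher in stably expanded libraries, compared with 1.2% of all genes. These were *Ms4a3* at 1.26 and *Prss57* at 1.25 on the log2 scale. With no overlap between the groups, 8 of 9 were higher, compared with 16.1% of all genes, and 1 was lower. *Serpinb1a*, a protease inhibitor, and *Srgn*, the granule proteoglycan serglycin, were at 0.90 and 0.87, under the 2-fold limit. De novo expanded libraries 1 and 2 had the lowest sums of the 9 libraries, 3403 and 4689 CPM, and library 3 the highest, 21369 CPM. Among the de novo expanded libraries, library 3 therefore stood apart in the secondary and in the primary granule genes. Stably expanded libraries 1 and 2, the highest in the secondary granule genes, had primary granule sums of 14069 and 11768 CPM, below that library.

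**Figure D4:**
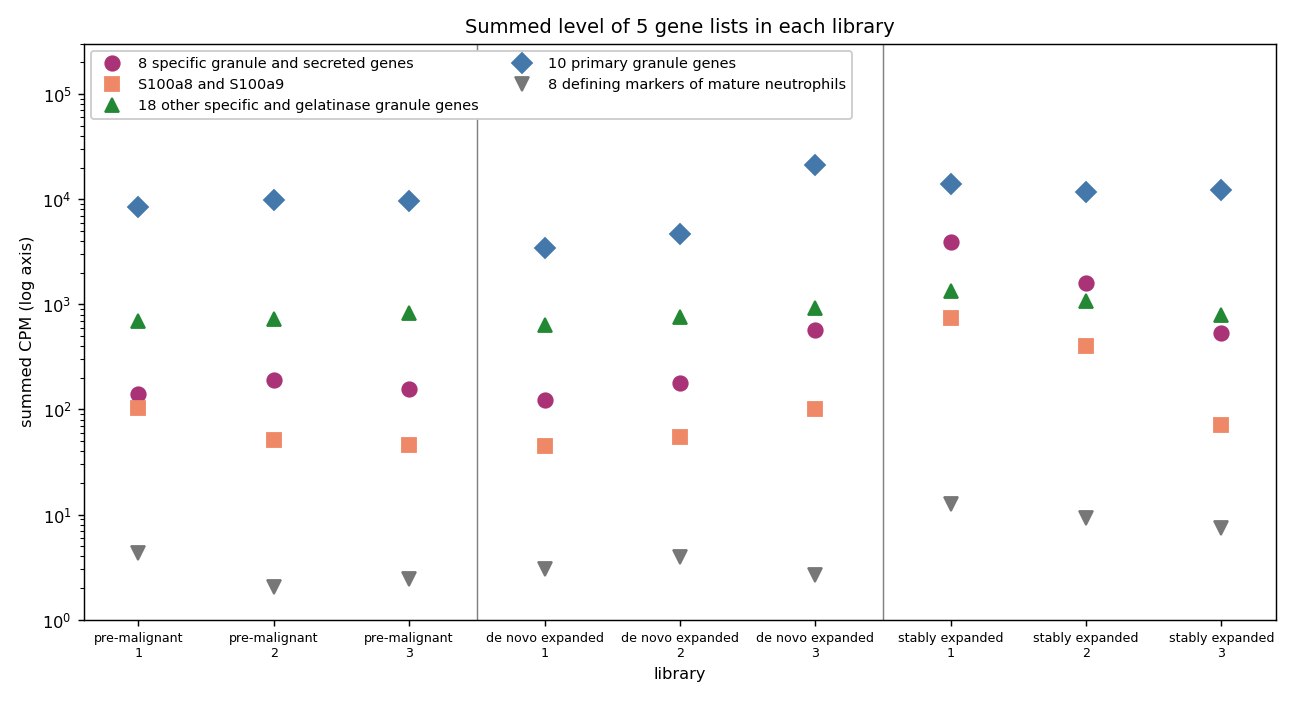
Summed CPM (log axis) of 5 gene lists in each of the 9 libraries (x axis). The 8 specific granule and secreted genes range from 122 to 3943 CPM, the 10 primary granule genes from 3403 to 21369 CPM, and the 8 markers of mature neutrophils stay at or below 12.5 CPM.

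Among 10 transcription factors of granulocyte development, 1 was called up and 1 down in the stably expanded group relative to the pre-malignant group. Of all 13968 genes tested, 168 were called up and 216 down. *Cebpe*, which encodes C/EBPε, had 36.3, 33.2 and 28.2 CPM in the pre-malignant and 139, 72.4 and 107 CPM in the stably expanded libraries, where it rose by 1.66 on the log2 scale (standard error 0.21, limma adjusted p = 0.00346). In de novo expanded libraries it had 8.51, 16.1 and 89.5 CPM, so that library 3 again resembled the stably expanded libraries. *Irf8*, a factor of the monocyte lineage, fell by 1.35 on the log2 scale (standard error 0.25, adjusted p = 0.0126, limma), and its lowest level, 63.2 CPM, was in de novo expanded library 3. *Klf5* was at 1.13 (adjusted p = 0.132) and *Gfi1*, a repressor needed for granulocyte maturation, at 0.85 (adjusted p = 0.0102, under the 2-fold limit).

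Of 22 genes of later neutrophils, 13 were tested in stably expanded against pre-malignant libraries, 3 were called higher and 1 lower. The calls over all 13968 genes were 168 higher and 216 lower. *Trem3*, an activating receptor, rose by 2.24 on the log2 scale (limma adjusted p = 0.0116), and *Cxcr2*, the chemokine receptor of mature neutrophils, rose by 1.64 (adjusted p = 0.0325). *Mcemp1*, named after its values were seen, rose by 1.06 (adjusted p = 0.0177). *Cxcl2*, a chemokine gene, fell by 3.26 on the log2 scale (adjusted p = 0.0102), but passed the filter only through the pre-malignant group. *Lrg1* was at 1.25 (limma adjusted p = 0.220).

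Receptors, partners and inhibitors of the proteins gave 1 call among 5 tested of 12, where 1.2% of all genes were called higher. This was *Timp2*, an inhibitor of metalloproteinases, at 1.43 (limma adjusted p = 0.0360). *Tlr4*, a receptor for S100A8 and S100A9, was at 0.89 (adjusted p = 0.0810), *Ager*, another receptor of S100 proteins, at -0.13 and *Lrp1*, an endocytic receptor that binds lactoferrin, at -0.06. Among 20 relatives of the 10 genes, 8 were tested, 1 was called higher and 1 lower, compared with 168 and 216 of all 13968 genes. The chitinase-like *Chil1* rose by 1.63 on the log2 scale (limma adjusted p = 0.0142), and the olfactomedin *Olfm1* fell by 2.42 (adjusted p = 0.0328). *Olfml2b* (1.90, adjusted p = 0.107) and *S100a6* (1.81, adjusted p = 0.0608) did not pass. In *S100a6*, the high libraries were de novo expanded 1 and 2, with 40.2 and 43.0 CPM compared with at most 12.7 CPM elsewhere, unlike any of the 10 genes. In de novo expanded against pre-malignant libraries and in stably against de novo expanded libraries, limma called 0 genes of these 6 lists. At an unadjusted p under 0.05, 4 of 57 tested were higher and 3 lower in the first comparison, where 5.99% of all genes were higher. In the second, 10 of 58 were higher and 0 lower, where 2.72% of all genes were higher.

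Other genes near *Camp*, *Ngp* and *Ltf* were looked at after the values were known. Of 51 other annotated genes in this stretch of chromosome 9, 19 were tested in stably expanded against pre-malignant libraries, 0 were called higher and 1, *Cspg5*, was called lower. Their median log2 fold change was -0.15, with the highest at 0.55.

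Genes of the sort and of the transformation were present in every library, with 142 to 287 CPM of *Kit*, 310 to 385 CPM of *Ptprc* (CD45), 315 to 687 CPM of *Hoxa9* and 535 to 1099 CPM of *Meis1*. Markers of other cells were examined in the same libraries. The 8 markers of mature neutrophils (*Ly6g*, *Cxcr2*, *Retnlg*, *Mmp9*, *Il1b*, *Asprv1*, *Mrgpra2a* and *Stfa2l1*) summed to between 2.05 and 4.33 CPM in the pre-malignant, 2.68 and 3.92 CPM in the de novo expanded and 7.42 and 12.5 CPM in the stably expanded libraries. *Cxcr2* was called higher in stably expanded than in pre-malignant libraries. *Stfa2l1* passed the filter only through the stably expanded group, with 49, 40 and 9 reads compared with 0, 3 and 4 in the pre-malignant libraries, and its call is not counted here. The other 6, *Ly6g*, *Retnlg*, *Mmp9*, *Il1b*, *Asprv1* and *Mrgpra2a*, stayed at or below 1.08 CPM in every library and *Il1b* had 0 reads in the stably expanded libraries. A count of 0 allows up to 3 reads.

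The 5 eosinophil markers summed to between 17.9 and 26.9 CPM in the pre-malignant, 8.85 and 68.3 CPM in the de novo expanded and 58.5 and 88.2 CPM in the stably expanded libraries. *Siglecf* was called higher in stably expanded than in pre-malignant libraries. *Prg2* passed the filter only through the stably expanded group, with 163, 56 and 85 reads compared with 13, 4 and 0, and its call is not counted here. *Epx*, *Ear6* and *Ccr3* were at or near 0 in the stably expanded libraries. The 7 B cell markers summed to 11.1 to 19.3 CPM in the stably expanded and 15.3 to 20.8 CPM in the pre-malignant libraries. *Cd79b* alone had 14.6, 9.73 and 17.8 CPM in the stably expanded and 6.91, 10.1 and 4.66 CPM in the pre-malignant libraries, and the 6 others summed to 1.37 to 2.41 CPM and 9.65 to 13.9 CPM. Tests of the markers that are near 0 in the stably expanded libraries, such as *Ebf1*, *Pax5* and *Ms4a1*, are not counted, since they passed the filter through the pre-malignant group. From the pre-malignant to the stably expanded group, 3 of 7 tested macrophage and monocyte markers rose and 4 fell. Only *Csf1r* was called, as lower, with 97.6, 125 and 160 CPM before and 29.1, 56.9 and 32.9 CPM after. The 10 of this list summed to between 522 and 777 CPM in all libraries, which does not show these opposite directions. *Ly6c2* was the highest of the list in each library, with 351, 284 and 364 CPM in the pre-malignant and 499, 412 and 387 CPM in the stably expanded libraries. No marker of T cells, erythroid cells, platelets, or basophils and mast cells was called in any comparison. Only 1 of 7 T cell markers and 1 of 5 platelet markers passed the filter in each comparison. Of 7 tested erythroid markers, 6 were lower and 1 higher than in the pre-malignant group, in de novo expanded and likewise in stably expanded libraries. The absence of calls is therefore no statement of equal levels. T cell and platelet markers summed to at most 4.45 and 3.11 CPM, basophil and mast cell markers to between 33.0 and 67.8 CPM, and erythroid markers to between 24.6 and 55.8 CPM in the pre-malignant, 3.33 and 20.3 CPM in the de novo expanded and 4.82 and 32.5 CPM in the stably expanded libraries. The part of these cells in the levels of the 10 genes was not tested.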

How the data were processed

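RNA-Seq of 9 libraries (stranded total RNA libraries, SMARTer Pico v3) was analysed from 3 pairwise tables. Per the authors' methods and processing notes, reads were trimmed with Trim Galore 0.6.4, aligned to GRCm38.p6 (GENCODE M25) with STAR 2.6.1d and counted with featureCounts 1.6.4 within nf-core/rnaseq, and normalized with DESeq2. The signal that the authors deposited per library is the read count per gene divided by a size factor over the 6 libraries of a table (normalized count). The tables also hold the exon length of each gene and the authors' log2 fold changes with standard errors, Wald statistics, p-values and adjusted p-values, which were not used. Dividing by the step of 1 read gave whole reads, within 0.05 reads, for at least 99.99% of values, and CPM and TPM were computed from these reads. TPM uses the deposited exon length. Counts of unique molecules are not given in the sources used here, and precision covers counting error and library spread only.

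Groups were taken from the sample labels. Each pair of groups was tested two-sided with limma 3.58.1 (R 4.3.3) (empirical Bayes moderation with a mean-variance trend) on the log2 of normalized counts plus 1, for genes averaging 10 or more, with Benjamini-Hochberg adjustment over all genes tested. Calls needed an adjusted p under 0.05 and at least 2-fold change. The test was also run on simulated counts with known changes, in which all genes shared 1 dispersion. That setting does not cover genes of unequal spread such as the 10, and no conclusion is drawn from it here. Alternatives were pseudocounts of 0.1 and 5, no filter or a mean of at least 50, quantile normalization, median centring, edgeR 4.0.16 with TMM, DESeq2 1.42.0 without outlier replacement or filters, adjusted over the same genes (both on recovered reads), 1 fit of all 9 libraries, no fold limit and leaving out each library. Figures were drawn with matplotlib 3.10.9.

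The 10 genes, the 6 other gene lists and the 9 marker lists were chosen with earlier results of these data known. Besides the 10 genes, up to 4 genes per list with the largest absolute log2 fold change of stably expanded over pre-malignant, and the 5 genes most correlated with the mean z-score of the 10, are named, except for items that are not reported here. Genes named because they were called, or for their place near a member of the 10, were chosen after their values were seen. Promoter sequences are from RefSeq (GRCm38.p6).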

Additional observations from a re-analysis of the deposited data

How the results depend on the processing

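No paired analysis was possible because the columns of the tables are linked to groups only, so that their libraries could not be matched by clone or mouse. Of 554 values under alternatives, 517 kept their direction and their side of the threshold, or moved by less than the spread. Counts of called genes were included in these where they changed little, such as 5 to 9 instead of 7. With no fold limit only the calls were redone, and the fold changes stayed the same. The cause of the changes in the other values was not tested. Between stably expanded and pre-malignant libraries, 0 instead of 7 genes were called with 1 fit of all 9 libraries, and edgeR and no filter on low values called 9 and DESeq2 8. Leaving out 1 library called between 5 and 9 genes there, between 0 and 1 in de novo expanded against pre-malignant and between 0 and 6 in stably against de novo expanded. For the last of these, the median log2 fold change lay between 1.4998 and 3.35. DESeq2 called 2 genes in de novo expanded against pre-malignant. In that comparison, leaving out 1 library moved *Ngp* between -0.43 (without de novo expanded library 3) and 0.73, *Fcnb* between -0.79 (also without it) and 1.06, and *S100a8* between -0.78 and 0.018, positive without pre-malignant or de novo expanded library 1. With fewer than 20 reads in each library, *Mmp8* was too low for a firm statement.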
